A study of Mus musculus with 12 samples.

Results

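The genes Hdc and Slc18a2 make and store histamine, and they were followed through 4 cell populations sorted from mouse bone marrow. They were taken by symbol from a deposited RNA sequencing table of 14560 genes, and both were listed, once each, so 2 of 2 members were measured. All samples came from C57BL/6 mice, given in the series design as 3 C57Bl/6J animals, with 3 libraries per population and 12 in all. DN-GMPs are progenitors with c-Kit, CD34 and CD16/32 at the surface and without CDH1 (E-cadherin) or FceRIa, the IgE-binding receptor chain. Pro-BMPs share that gate but carry CDH1, and Pre-BMPs carry FceRIa, with CDH1 labelled as absent. These 3 progenitor gates also left out cells with B220, CD3, Ter119, CD11b, Gr1 or Sca1. Basophils were sorted without c-Kit and with CD49b and FceRIa, after leaving out B220, CD4, CD8a, Ter119 and Sca1. No age, sex or treatment of the mice was given, and no mast cells were sampled.

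Histamine is made in a single step, the removal of the carboxyl group of histidine by histidine decarboxylase, the product of Hdc. The enzyme works in the cytosol and needs pyridoxal phosphate, the active form of vitamin B6. Histamine is then carried into vesicles and granules by VMAT2, the product of Slc18a2, which exchanges protons in the vesicle for amines in the cytosol and thus depends on the proton pump V-ATPase. VMAT2 also loads serotonin and the catecholamines. Basophils and mast cells store histamine in their granules and release it when IgE receptors are crosslinked.

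Hdc (ENSMUSG00000027360) lies on the minus strand of chromosome 2 at 126593667 to 126619299 in GRCm38, by the GENCODE M21 annotation, and Slc18a2 (ENSMUSG00000025094) on the plus strand of chromosome 19 at 59260896 to 59296012. No other annotated gene overlaps Hdc. Slc18a2 shares 111 of its 5225 exon bases with the antisense gene Gm29261, whose reads cannot be told apart from those of Slc18a2 without strand information. The windows around the RefSeq transcript starts (GRCm38.p6), from 250 bases before to 50 bases after, are shown because both genes rose at the same first step. Capitals mark matches, on either strand, to the GATA motif (AGATAA, the variant AGATAG, the form with TGATAA, and the variant TGATAG), the GC box (GGGCGG) or the cAMP response element (TGACGTCA). The Hdc window is chr2:126618629-126618928, minus strand, and the Slc18a2 window is chr19:59260628-59260927, plus strand. All of the Hdc window lies inside the GENCODE gene, which on the minus strand begins at 126619299. Its positions are therefore counted from the RefSeq start and are not upstream of the GENCODE gene.
Hdc: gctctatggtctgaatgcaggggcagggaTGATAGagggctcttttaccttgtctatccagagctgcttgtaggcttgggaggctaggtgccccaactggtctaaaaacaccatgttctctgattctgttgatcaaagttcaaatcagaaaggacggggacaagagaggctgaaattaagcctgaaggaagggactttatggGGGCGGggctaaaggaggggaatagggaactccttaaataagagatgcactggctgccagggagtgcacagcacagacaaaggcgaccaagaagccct
Slc18a2: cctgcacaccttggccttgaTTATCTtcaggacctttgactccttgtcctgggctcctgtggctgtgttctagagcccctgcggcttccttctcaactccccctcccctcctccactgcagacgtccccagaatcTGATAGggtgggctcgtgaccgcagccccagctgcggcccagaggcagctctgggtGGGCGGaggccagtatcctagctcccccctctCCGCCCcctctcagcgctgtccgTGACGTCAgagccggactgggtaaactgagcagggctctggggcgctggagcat

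The Hdc window held 1 GATA match, starting at base -221, and 1 GC box at -48, counted from the transcript start. The Slc18a2 window held GATA matches at -230 and -115, GC boxes at -59 and -27, and a cAMP response element at -4 that spans the start. Of 32851 such windows in the RefSeq table, 29.8% held a GATA match, 35.7% a GC box and 1.79% the cAMP response element, so the last is the least common of these letters. Neither window held the E-box letters CATGTG, nor the related form CACGTG (20.4% of windows did) or TATAAA (13.6%). The Slc18a2 window is the richer in G and C, at 64.0% against 50.7% for Hdc and a median of 52.7% over all windows. These matches describe the letters only, and binding was not measured.

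**Figure D1:**
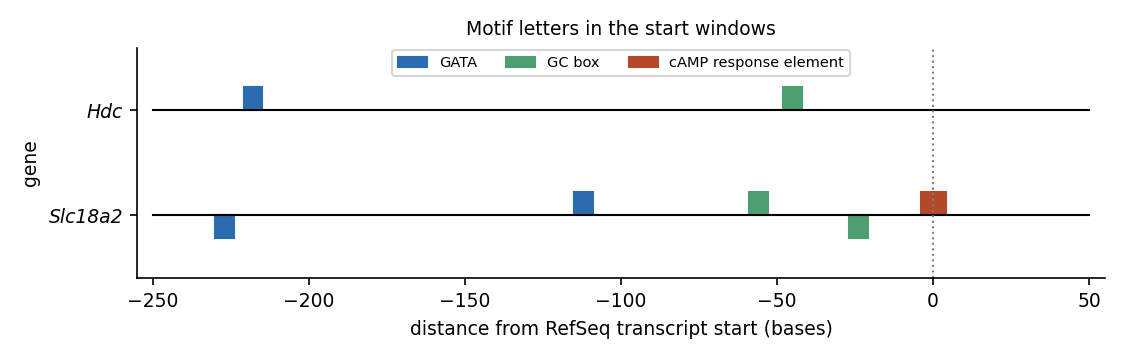
Positions of motif letters in the windows of Hdc and Slc18a2 (horizontal axis, bases from the RefSeq transcript start, dotted line; blocks above a line are on the strand of the gene, below it on the other). Both genes have a GATA match in the far part of the window, and the cAMP response element, at -4, is in Slc18a2 alone of these 2 genes.

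Levels are given in CPM, the reads on a gene scaled to the library size behind the deposited values (counts per 1000000 reads). Reads on listed genes ran from 29762981 to 42502405 per library, and a count of 0 allows up to 3 reads, or 0.0512 to 0.0745 CPM (counting error only). Of the gate markers, Fcer1a followed the labels, with 0 reads in DN-GMPs and 421 to 477 CPM in Pre-BMPs. Cdh1 RNA went against them, with a mean of 147 CPM in Pre-BMPs, labelled CDH1-negative, and of 42.8 CPM in Pro-BMPs, labelled CDH1-positive. In sorted bulk samples, fewer cells of a type and less RNA per cell cannot be told apart. The labels tie no library to a mouse of its own, so p-values reflect library-to-library spread, which may be technical.

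Hdc, the enzyme gene, was already well expressed in DN-GMPs. Its level there was 216, 329 and 297 CPM in replicates 1 to 3. In Pro-BMPs it stood at 728, 761 and 759 CPM, and in Pre-BMPs at 959.6, 817 and 845 CPM. Every Pro-BMP library lay above every DN-GMP library, and every Pre-BMP library above every Pro-BMP library, though the lowest Pre-BMP library was near the highest Pro-BMP one. In basophils the level was 1811, 1796 and 1515 CPM, above all progenitor libraries.

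Slc18a2, the vesicle carrier gene, started from a far lower level. DN-GMPs had 6.66, 3.58 and 5.31 CPM, which rests on 314, 174 and 214 reads. Pro-BMPs had 77.3, 65.6 and 100.4 CPM and Pre-BMPs 409.6, 354 and 490 CPM. DN-GMP, Pro-BMP and Pre-BMP libraries did not overlap. For neither member is the share of all genes that separate in this way given, so non-overlap is a description only. Basophils had 369, 355 and 419 CPM, a range that falls inside that of the Pre-BMPs.

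**Figure D2:**
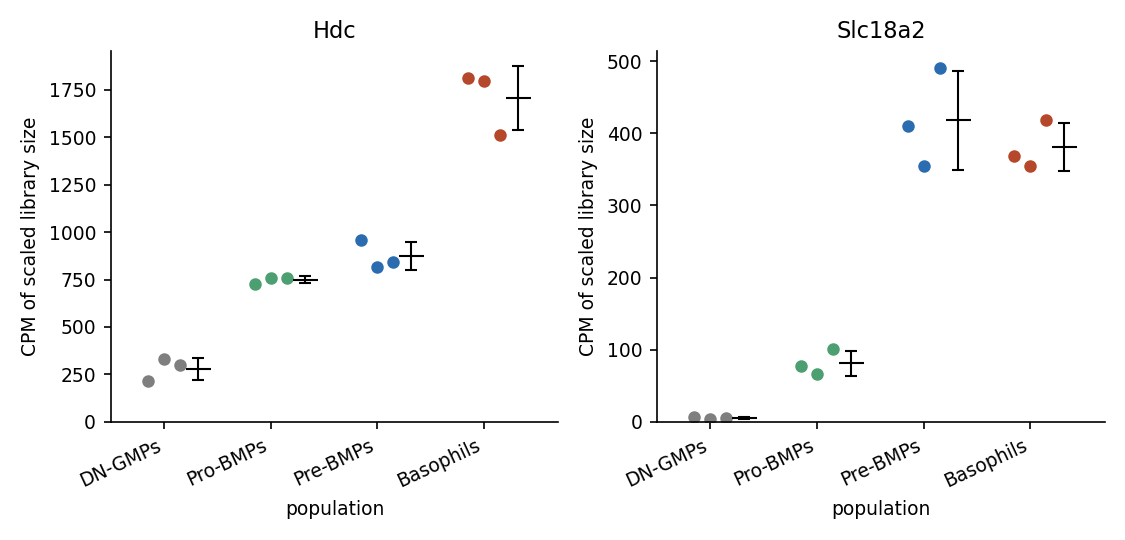
CPM of Hdc and Slc18a2 (vertical, linear axes that start at 0 and differ between genes) against population (horizontal); each point is 1 of 12 libraries, and the bar shows mean and SD, n = 3. Hdc averages 281 CPM in DN-GMPs and 1707 in basophils, while Slc18a2 averages 5.19 in DN-GMPs and reaches 418 already in Pre-BMPs.

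At the first step, from DN-GMPs to Pro-BMPs, both genes rose. Hdc rose 2.71-fold, from 281 ± 58.2 to 749 ± 18.7 CPM (SD, n = 3; log2 change 1.44, SE 0.133, limma adjusted p = 9.07e-05). Slc18a2 rose 15.9-fold, from 5.19 ± 1.55 to 81.1 ± 17.7 CPM (log2 change 3.99, SE 0.228, limma adjusted p = 1.99e-06). Of all genes 2.00% were called higher at this step, at a limma adjusted p under 0.05, so calls were uncommon there and both members were among them.

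From Pro-BMPs to Pre-BMPs only Slc18a2 of the pair was called. It rose 5.19-fold to 418 ± 68.3 CPM (log2 change 2.37, SE 0.228, limma adjusted p = 9.92e-05). Hdc was at 749 ± 18.7 and 874 ± 75.6 CPM, and its log2 change of 0.22 was not called (SE 0.133, limma adjusted p = 0.369). The 95% interval of that Hdc change ran from -0.07 to 0.51, so a fold of up to 1.43 is allowed. At this step 4.80% of all genes were called higher.

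From Pre-BMPs to basophils the order was turned around. Hdc rose 1.95-fold to 1707 ± 167 CPM (log2 change 0.96, SE 0.133, limma adjusted p = 2.58e-04), at a step where 13.9% of all genes were called higher. With quantile normalization the log2 change of Hdc was 0.32 and was no longer called (limma adjusted p = 0.0947). Slc18a2 was at 418 ± 68.3 CPM in Pre-BMPs and 381 ± 33.8 in basophils, a log2 change of -0.12 that was not called (SE 0.228, limma adjusted p = 0.729). The 95% interval of the Slc18a2 change ran from -0.62 to 0.38.

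Hdc was thus lowest in DN-GMPs and highest in basophils, with Pro-BMPs and Pre-BMPs between. Its Pro-BMP and Pre-BMP libraries did not overlap, but the change was not called by the fit, which pools the spread of all 12 libraries. With the 2 populations fitted alone it was not called either (limma adjusted p = 0.106). For Slc18a2 the order was DN-GMPs, Pro-BMPs, then basophils and Pre-BMPs, which did not differ beyond their spread. From DN-GMPs to basophils Hdc rose 6.15-fold (limma adjusted p = 5.84e-08) and Slc18a2 75.5-fold (limma adjusted p = 4.94e-09), where 23.2% of all genes were called higher. The first step held 54.9% of that log2 change for Hdc and 63.9% for Slc18a2. The last step held 36.8% for Hdc and -1.98% for Slc18a2.

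Per kilobase of exon, which allows a rough comparison of genes with each other, Hdc exceeded Slc18a2 in every population. The exon length joins all annotated exons of a gene, and which transcripts these cells use was not determined, so these levels, ranks and length-corrected ratios are approximate. Hdc stood at 43.9 ± 9.10 CPM per kilobase in DN-GMPs and 267 ± 26.1 in basophils. Slc18a2 stood at 0.993 ± 0.296 in DN-GMPs, 80.0 ± 13.1 in Pre-BMPs and 73.0 ± 6.48 in basophils. Among 14515 genes with an exon length, Hdc ranked 120 in basophils by level per kilobase, up from 1140 in DN-GMPs, with ranks of 317 for Pro-BMPs and 223 for Pre-BMPs. Slc18a2 ranked 10340 in DN-GMPs and 3073 in Pro-BMPs, but 487 in Pre-BMPs and 684 in basophils.

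The ratio of Hdc to Slc18a2 within each library is free of the scaling between libraries. In DN-GMPs, Hdc had 32.4, 91.7 and 55.7 times the value of Slc18a2, not corrected for length. The ratio was 9.41, 11.6 and 7.56 in Pro-BMPs and 2.34, 2.31 and 1.72 in Pre-BMPs. In basophils it was back up at 4.91, 5.06 and 3.61. No 2 populations overlapped, and the lowest ratios were those of the Pre-BMPs.

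The mean log2 ratio was 5.78 ± 0.750 in DN-GMPs and 3.23 ± 0.309 in Pro-BMPs (SD, n = 3). Its mean was 1.07 ± 0.249 in Pre-BMPs and 2.16 ± 0.269 in basophils. The ratio differed between the 4 populations (exact permutation test over 369600 regroupings, p = 6.49e-05, the smallest it can give). Between any 2 populations alone, 3 libraries against 3 cannot go below an exact p of 0.1. Corrected for exon length, the mean ratio was 44.9 in DN-GMPs and 7.67 in Pro-BMPs, against 1.72 in Pre-BMPs and 3.66 in basophils.

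**Figure D3:**
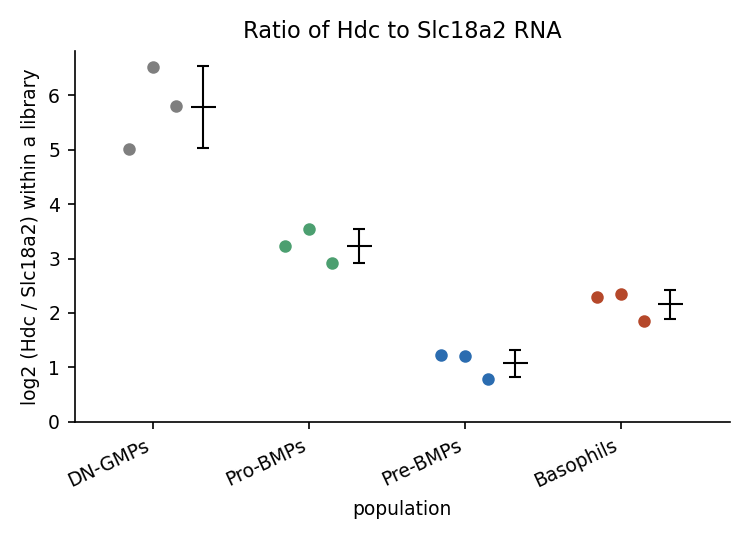
Log2 of the ratio of Hdc to Slc18a2 within each library (vertical axis, from 0, not corrected for length) against population (horizontal axis); each point is 1 library, and the bar shows mean and SD, n = 3. The mean falls from 5.78 in DN-GMPs to 1.07 in Pre-BMPs and is 2.16 in basophils.

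Cells other than basophils can express these genes: mast cells hold both, and platelets carry VMAT2. Of 7 mast cell markers 2 were listed, Cma1 and Tpsb2, mast cell chymase and tryptase genes. Their summed level was 82.7 to 289 CPM in Pre-BMPs. DN-GMPs had 0.0412 to 0.0745 CPM, Pro-BMPs 0.547 to 1.74 and basophils 0.0463 to 1.61. Tpsb2 had 0 reads in all DN-GMP and Pro-BMP libraries. The part of the mast cell genes in the Pre-BMP values was not tested.

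Of 6 platelet and megakaryocyte markers 5 were listed, and they summed to 1213 to 1602 CPM in basophils. Pre-BMPs had 356 to 509 CPM, Pro-BMPs 116 to 160.2 and DN-GMPs 40.2 to 78.8. Most of the sum in basophils was Itga2b, at a mean of 1341 CPM, while the platelet chemokine gene Pf4 had 0 reads in all basophil libraries. The 6 basophil markers summed to 32833 to 38479 CPM in basophils, while Pre-BMPs had 2869 to 3519, Pro-BMPs 326 to 462 and DN-GMPs 27.3 to 43.6, with Fcer1a and Cd200r3 at 0 in the last. The 6 eosinophil markers were highest in Pre-BMPs, at 2118 to 3557 CPM, while Pro-BMPs had 1657 to 2761, basophils 247 to 400.2 and DN-GMPs 20.3 to 46.4. The 7 neutrophil markers had their highest sums in DN-GMPs (17167 to 19926 CPM) and Pro-BMPs (15987 to 17873), while Pre-BMPs had 4701 to 5746 and basophils 1926 to 2735. Most of the neutrophil sum in basophils was Mpo, at a mean of 2362 CPM. Camp and S100a9 had their highest means in Pre-BMPs, at 11.2 and 44.9 CPM, and Ltf in basophils, at 3.34. Monocyte and dendritic cell markers (6 genes) had their highest sums in DN-GMPs, at 2001 to 2368 CPM. Pro-BMPs had 343 to 442, Pre-BMPs 28.7 to 40.2 and basophils 253 to 440.3. Most of that sum in basophils was Ccr2, at a mean of 302 CPM, above its 87.5 in DN-GMPs. Erythroid markers (5 genes) peaked in Pre-BMPs at 163 to 199 CPM and were at or under 29.9 elsewhere, and Cd79a, the 1 lymphoid marker listed of 4, was at or under 4.54. The part of any of these cells in the levels of Hdc and Slc18a2 was not tested.

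The other genes of histamine handling were taken from a list of 33 that covers breakdown, receptors, amine carriers, histidine and vitamin B6 supply, and related enzymes. Of these, 19 were in the table. At the first step 1 was called higher and 0 lower, or 5.26% of the 19, beside 2.53% of all genes. From Pro-BMPs to Pre-BMPs 2 were higher and 1 lower (15.8%, beside 9.49% of all genes). From Pre-BMPs to basophils 5 were higher and 4 lower (47.4%, beside 30.4% of all genes). The median log2 change of the 19 was 0.03, 0.10 and -0.18 at the 3 steps, and over all genes it was 0.02, 0.02 and -0.10.

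Among carriers at the cell surface, Slc22a3 encodes OCT3, a transporter of organic cations that can move histamine. It stood at 8.66, 0.823 and 17.3 CPM in DN-GMPs and 85.8, 79.1 and 79.3 in Pro-BMPs. It was higher still in Pre-BMPs, at 300.1, 269 and 344 CPM, and stood at 132, 152 and 201 CPM in basophils. Its log2 change of -0.93 from Pre-BMPs to basophils was not called (SE 0.806, limma adjusted p = 0.425). The gene rose at the first step (log2 change 4.02, SE 0.806, limma adjusted p = 0.0223), a call lost without Pro-BMP replicate 1, 2 or 3 (limma adjusted p up to 0.0755). The size of that change depended on DN-GMP replicate 2, the lowest library, without which it was 2.73, and it ran up to 4.92 without DN-GMP replicate 3. Its log2 change of 1.90 from Pro-BMPs to Pre-BMPs was not called (SE 0.806, limma adjusted p = 0.184), but it was with voom weights (adjusted p = 3.28e-04) and with the 2 populations fitted alone (limma adjusted p = 4.27e-04).

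Slc6a4, the serotonin carrier gene, had 0 reads in all DN-GMP and Pro-BMP libraries and 0, 0 and 1.63 CPM in Pre-BMPs. In basophils it rose to 89.3, 63.3 and 38.6 CPM (limma adjusted p = 9.22e-04). Slc18a1, which encodes the other vesicular monoamine carrier VMAT1, stood at 0.386, 0.230 and 0.211 CPM in Pre-BMPs and rose to 14.1, 22.1 and 12.3 CPM in basophils (limma adjusted p = 0.00844). Beside it, the mean of Slc18a2 was 381 ± 33.8 CPM in basophils and that of Slc18a1 16.2 ± 5.22, not corrected for length.

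Of the receptors, Hrh4, the H4 histamine receptor gene, had 0 reads in DN-GMPs and stood at 0, 0 and 1.18 CPM in Pro-BMPs. It rose to 2.18, 6.35 and 11 CPM in Pre-BMPs (limma adjusted p = 0.0178) and to 238, 225 and 143 CPM in basophils (limma adjusted p = 0.0218). Both calls depended on single libraries. The first was lost without Pro-BMP replicate 1 or 2 or Pre-BMP replicate 2 or 3, with limma adjusted p up to 0.0743. The second was lost without Pre-BMP replicate 1 or 2 or basophil replicate 1 or 2, with limma adjusted p up to 0.0799. Hrh2, the H2 receptor gene, was not called at any step. It ran from 31.2 to 46.1 CPM in basophils against 1.85 to 3.89 in Pre-BMPs (log2 change 3.81, SE 1.95, limma adjusted p = 0.169). The fit pools the spread of all 12 libraries, and Hrh2 was uneven in DN-GMPs (0.361, 10.6 and 8.25 CPM) and Pro-BMPs (0, 0.496 and 8.61 CPM).

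Of 5 genes of histamine breakdown, 1 was called higher and 2 lower from Pre-BMPs to basophils, or 60.0%, beside 30.4% of all genes. At the earlier steps 0 of the 5 were called, where the shares over all genes were 2.53% and 9.49%. Hnmt, the enzyme that methylates histamine, fell from 23.7 ± 4.97 CPM in Pre-BMPs to 7.05 ± 4.21 in basophils (log2 change -1.98, SE 0.456, limma adjusted p = 0.00669). The basophil libraries had 2.38, 10.6 and 8.19 CPM of Hnmt, and without basophil replicate 1 the log2 change was -1.32 (limma adjusted p = 0.00437). Maoa, the monoamine oxidase A gene, stood at 11.7, 24.6 and 15.3 CPM in Pre-BMPs and fell to 0, 1.90 and 0 CPM in basophils (limma adjusted p = 0.00199). Maob was called higher in basophils, but from 0 reads in Pre-BMPs to 0.231, 1.83 and 2.49 CPM, and leaving out any 1 of the 6 libraries ended that call (limma adjusted p up to 0.121). Aoc1, the diamine oxidase gene, reached 6.38 to 16.8 CPM in Pre-BMPs and 6.11 to 13.3 in basophils from 0 to 0.865 in DN-GMPs, with no step called, though it rose from DN-GMPs to basophils (limma adjusted p = 0.00104). Aldh2, an aldehyde dehydrogenase of the later steps, had means of 369.9 to 503 CPM over the 4 populations and was called only from DN-GMPs to basophils, where it rose by 0.34 on the log2 scale (limma adjusted p = 0.0133).

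**Figure D4:**
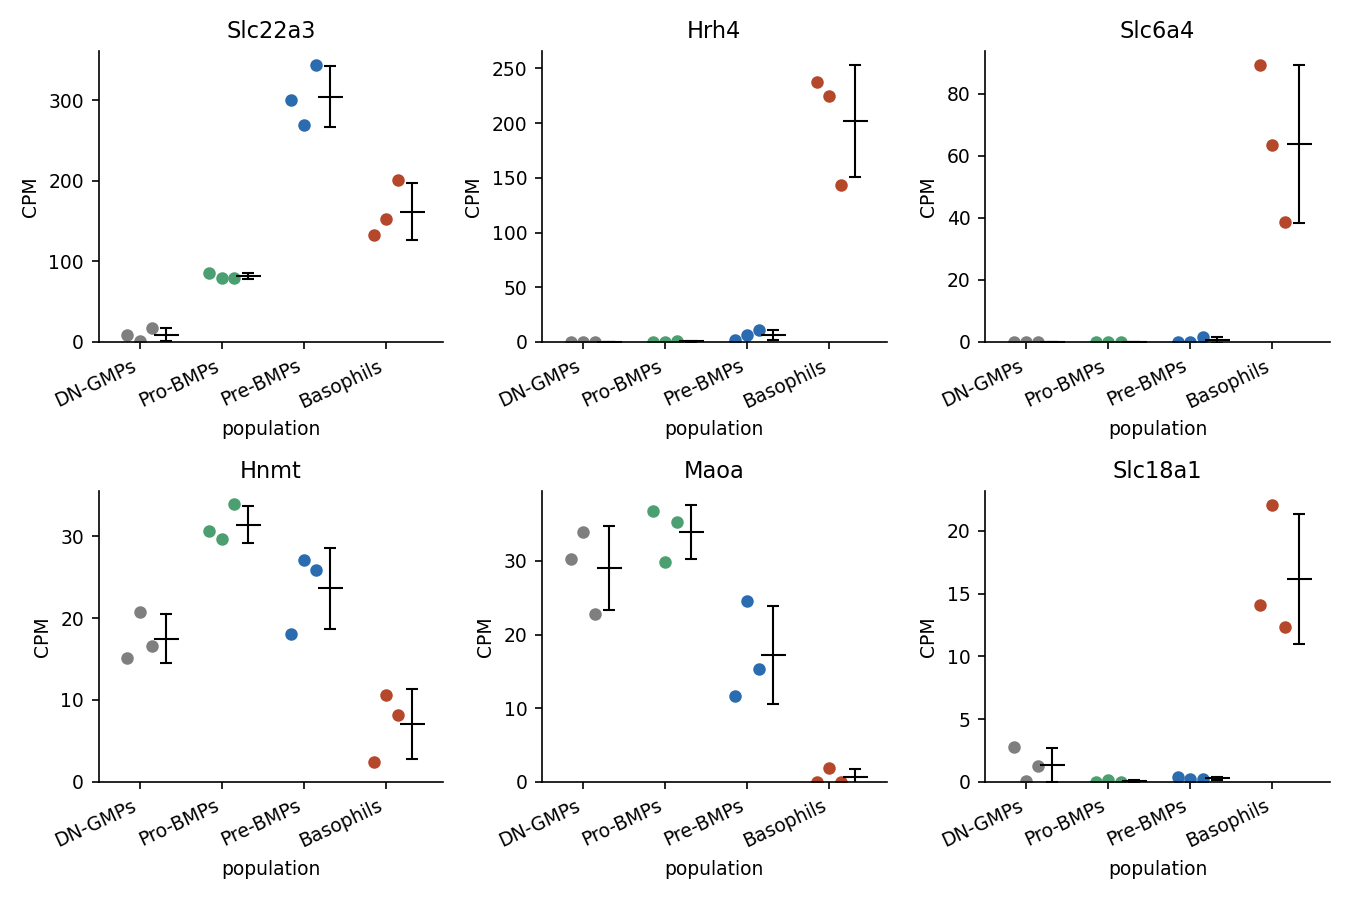
CPM of 6 histamine-related genes (vertical, linear axes that start at 0 and differ between genes) against population (horizontal); each point is 1 of 12 libraries, and the bar shows mean and SD, n = 3. Slc22a3 has its highest values in Pre-BMPs, at 269 to 344 CPM, though its change from Pre-BMPs to basophils is not called. Hrh4, Slc6a4 and Slc18a1 are highest in basophils, and Hnmt and Maoa are lowest there.

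On the supply side, 2 of 6 listed histidine genes were called from Pro-BMPs to Pre-BMPs, 1 higher and 1 lower, beside 9.49% of all genes. From Pre-BMPs to basophils 3 of the 6 were called, 1 higher and 2 lower, beside 30.4% of all genes. With 6 genes and calls in both directions, these counts show no common course of the list. Slc3a2, the heavy chain of large amino acid carriers, rose from 165 ± 23.9 CPM in Pre-BMPs to 396 ± 9.98 in basophils (log2 change 1.27, SE 0.112, limma adjusted p = 9.46e-06). Its light chain partner Slc7a5 fell from 107 ± 22 in Pro-BMPs to 67.1 ± 10 in Pre-BMPs (limma adjusted p = 0.0405). That fall was lost without Pro-BMP replicate 1 or 2 or any Pre-BMP replicate, with limma adjusted p up to 0.151. Hars, the cytosolic histidyl-tRNA synthetase gene, fell by 0.69 on the log2 scale in basophils (SE 0.128, limma adjusted p = 0.00183).

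Slc38a5, an amino acid carrier that accepts histidine, was at 0 in every Pro-BMP library. Against a floor of 3 reads per library there, its Pre-BMP mean was 29.9-fold higher, with the lowest Pre-BMP library at 1.09 CPM. Slc38a5 thus rose to 1.78 ± 0.845 CPM in Pre-BMPs (limma adjusted p = 0.00583). It fell again in basophils to 0.185 ± 0.244 CPM (limma adjusted p = 0.0306), which was no longer called without Pre-BMP replicate 1, 2 or 3 or basophil replicate 1 or 2 (limma adjusted p up to 0.107). Hars2 and the lysosomal histidine carrier gene Slc15a4 were not called at any of these steps, and nor was Pdxk, the pyridoxal kinase gene, which ran from 32.9 to 87.1 CPM over all libraries.

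V-ATPase builds the proton gradient that VMAT2 uses, and 18 of its 25 listed subunit and accessory genes were in the table. From DN-GMPs to Pro-BMPs 2 of the 18 rose and 0 fell, or 11.1%, beside 2.53% of all genes. These were Atp6v0a1, a membrane subunit that has tissue-specific relatives, and Atp6ap2, an accessory protein gene. Atp6v0a1 rose from 25.7 ± 6.18 to 61.9 ± 10.9 CPM (log2 change 1.28, SE 0.243, limma adjusted p = 0.0159), a call lost without DN-GMP replicate 3 or Pro-BMP replicate 1 (up to 0.0712). Atp6ap2 rose by 0.51 (SE 0.0903, limma adjusted p = 0.0112), a call lost without Pro-BMP replicate 3 (limma adjusted p = 0.0517).

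From Pro-BMPs to Pre-BMPs 2 of the 18 rose and 5 fell, or 38.9%, beside 9.49% of all genes. The genes that rose were Atp6v0a1 and its relative Atp6v0a2, chosen for naming after its values were seen, whose call (log2 change 0.90, limma adjusted p = 0.0334) was lost without Pro-BMP replicate 1, 2 or 3 or Pre-BMP replicate 1, 2 or 3 (limma adjusted p up to 0.121). Atp6v0a1 rose again, to 177 ± 50.7 CPM (log2 change 1.49, SE 0.243, limma adjusted p = 0.00311). Tcirg1, which encodes another form of the same membrane subunit, fell from 95.8 ± 4.81 to 33.6 ± 12.8 CPM (log2 change -1.58, SE 0.244, limma adjusted p = 0.00218). Atp6v0c, the proton-carrying ring subunit, fell from 28.2 ± 2.09 to 14.1 ± 0.344 CPM (log2 change -1, SE 0.183, limma adjusted p = 0.00598).

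From Pre-BMPs to basophils 11 of the 18 rose and 0 fell, or 61.1%, beside 13.9% of all genes called higher. With scaling by reads on listed genes the count was 7 and with quantile normalization 8, also with 0 lower. It was 9 to 10 with a library left out. The calls of Atp6v0c and of Atp6v1g1, chosen for naming after its values were seen, were lost without any 1 of the 6 libraries (limma adjusted p up to 0.129 and 0.148). Those of Atp6v0a1 and Atp6ap2 were lost with quantile normalization or scaling by reads on listed genes (limma adjusted p up to 0.0619 and 0.656). Atp6v1b2, a catalytic-head subunit, rose from 182 ± 10.2 to 524 ± 75.5 CPM (log2 change 1.51, SE 0.144, limma adjusted p = 1.67e-05). Atp6v0b rose by 1.30 (SE 0.0854, limma adjusted p = 1.02e-06) and Tcirg1 by 1.16 (SE 0.244, limma adjusted p = 0.00409). The median log2 change of the 18 genes was 0.62, beside -0.10 over all genes. Slc18a2 was not among the genes that rose at this step, while Hdc was.

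**Figure D5:**
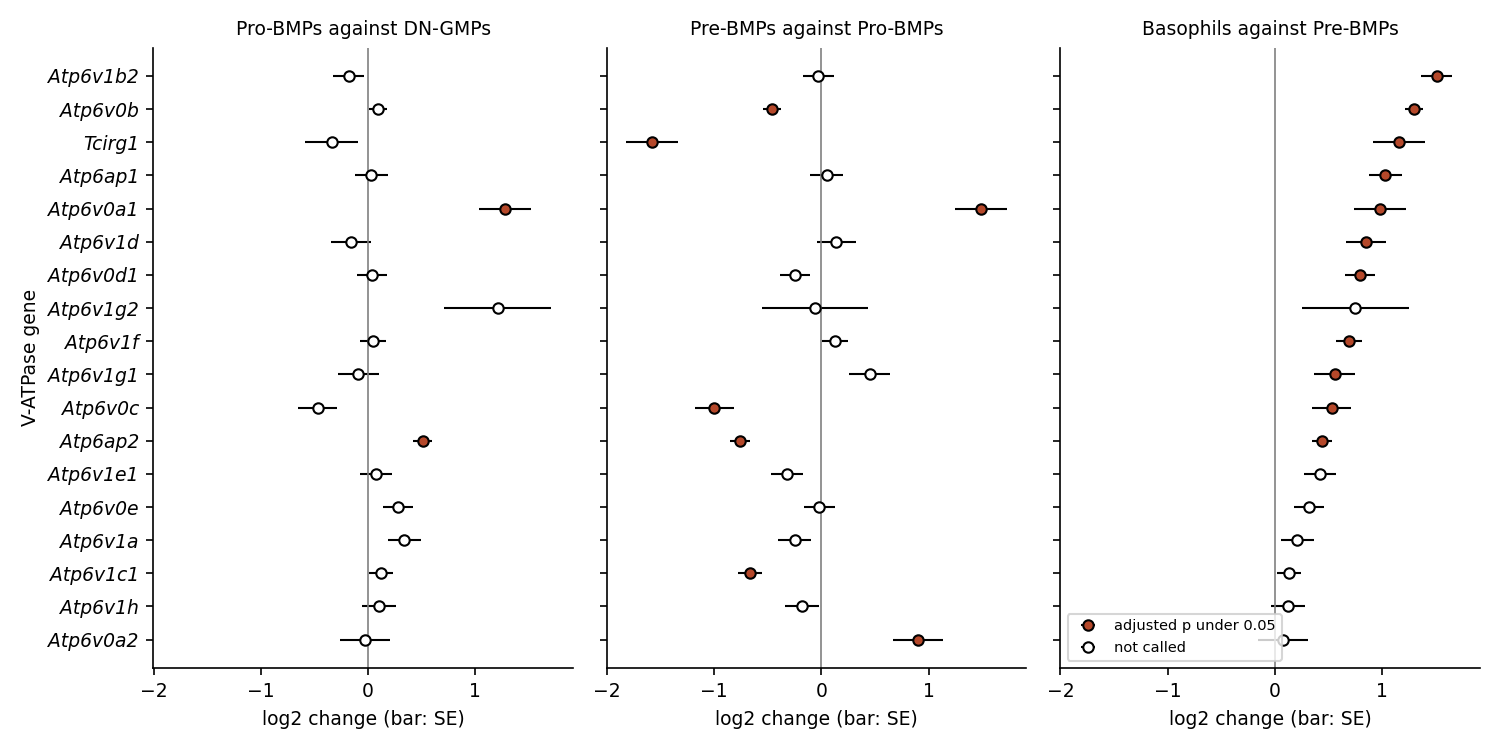
Log2 change (horizontal axes) of 18 V-ATPase genes (vertical axis) at the 3 steps, with bars for the SE of the limma fit and filled points for an adjusted p under 0.05. In the last panel 11 genes are called higher and 0 lower, while in the middle panel Atp6v0a1 and Tcirg1 lie on opposite sides of 0.

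Factors that have been linked to Hdc transcription were listed as Gata2, Mitf, Stat5a, Stat5b and Cebpa, and all 5 were in the table. Gata2 rose at each step, from 23.2 ± 4.11 CPM in DN-GMPs through 164 ± 59.9 and 770.2 ± 157 to 2104 ± 218 in basophils (limma adjusted p of 1.11e-04, 3.01e-04 and 0.00150). Mitf, a factor of the mast cell program, was not called at the first steps and fell from 4.11 ± 1.11 in Pre-BMPs to 0.139 ± 0.240 CPM in basophils (limma adjusted p = 0.00230). Stat5b rose from 98.3 ± 12.3 in Pro-BMPs to 184 ± 21.5 in Pre-BMPs (limma adjusted p = 0.00294) and to 279.9 ± 29.6 in basophils (limma adjusted p = 0.00869). The last call was lost with quantile normalization or scaling by reads on listed genes (limma adjusted p up to 0.217). Stat5a rose to 153 ± 7.71 in Pre-BMPs and fell back to 77.5 ± 19.2 in basophils (limma adjusted p of 0.00749 and 0.00124). Cebpa rose in basophils, from 42.1 ± 5.38 to 138 ± 23.9 CPM (limma adjusted p = 1.50e-04).

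The genes whose log2 values most resembled each member over the 12 libraries were ranked by Pearson r among 9393 genes above 10 CPM in at least 1 population. For Hdc these were Myo1d, an unconventional myosin (r = 0.983), Cd72 (0.980), Cd200r4 (0.979), Cdh1, the E-cadherin gene (0.978), and Cd63, a granule membrane tetraspanin used as a mark of basophil degranulation (0.978). Cd63 had a course near that of Hdc in level as well, with means of 367, 961, 1041 and 2029 CPM from DN-GMPs to basophils. Cdh1 spanned a far wider range, with means of 0.0911 CPM in DN-GMPs and 1049.6 CPM in basophils, and CDH1 is part of the gates. So did Myo1d (0.00686 and 229 CPM) and Cd200r4 (0.0166 and 121 CPM), whose DN-GMP means lie under the level of 3 reads. A high r thus marks a like shape on the log2 scale and not a like size of change. For Slc18a2 the nearest were Slc35d1, a nucleotide sugar carrier (0.991), Ms4a2, the beta chain of the IgE receptor (0.990), Rnase12 (0.989), Lpcat2, an enzyme of platelet-activating factor synthesis (0.989), and Gfi1b, a transcriptional repressor (0.988).

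Of the 5 genes nearest to Slc18a2, 3 had a lower mean in basophils than in Pre-BMPs: Slc35d1 (97.4 and 95.2 CPM in Pre-BMPs and basophils), Lpcat2 (216 and 165) and Gfi1b (127 and 110.3). The means of Ms4a2 (1086 and 1748) and Rnase12 (199 and 254) were higher in basophils. The 5 genes were picked by likeness to Slc18a2 over these same values. The median log2 change of all genes at this step was -0.10, so the count of 3 is not a result about these genes. Hdc and Slc18a2 had r = 0.899 with each other, so that Slc18a2 ranked 258 in likeness to Hdc, and Hdc 197 in likeness to Slc18a2. These values share the 4 population levels, so they describe the course over populations. By Spearman's rank correlation 0 of the 5 names were shared for either member.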

How the data were processed

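RNA from cells sorted in a pair of rounds into TRIzol was made into libraries with SmartSeq v4 and Nextera XT kits, per the labels' protocols, with no mark of strand. The tools named are Trimmomatic, STAR, deepTools and HTSeq, per the submitters' processing notes; versions, genome build and annotation: not given in the sources used here. The authors deposited log2 values: 2 raised to each value is a whole number of reads plus 0.5, times a constant per library, so whole reads were recovered (100% of values within 0.001 of a whole number). The table holds 14560 genes and 3 rows of reads on no gene, left out of tests; 6.65% to 12.6% of reads per library lay outside annotated features.

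limma 3.58.1 (R 4.3.3) was fitted to the deposited log2 values of all genes and 12 libraries with 1 mean per population, a mean-variance trend and no block. Tests were two-sided, with Benjamini-Hochberg adjustment over all genes and a threshold of 0.05. The fit was tested on simulated data. CPM leave out the 0.5 read. Exon lengths came from GENCODE M21 (14515 IDs matched) and start windows from RefSeq (2 of 2 members). Genes were named if on a histamine list and called at a step or above 10 CPM in a population, if among the 3 largest called V-ATPase changes per step, or if among the 5 nearest to a member. The values of 1 such gene are not reported here. Members and lists were chosen with earlier results of these data known. Of 18 same-numbered pairs of libraries, 2 had a correlation of deviations over 0.1. Replicate numbers were not treated as pairs, though this count cannot settle whether they are. The closing section covers 8 other settings and each library left out.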

Additional observations from a re-analysis of the deposited data

How the results depend on the processing

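The fits were repeated with 5 reads added, a filter at 1 CPM, quantile normalization, voom weights on the recovered reads, no mean-variance trend, the 2 populations alone, scaling by reads on listed genes and a replicate block. Every call and non-call of Hdc and Slc18a2 in the 6 comparisons stayed on its side of the threshold with the same direction under these settings, except that the change of Hdc from Pre-BMPs to basophils was 0.32 and not called with quantile normalization (limma adjusted p = 0.0947); the cause was not tested. Scaling by reads on listed genes moved the median gene at that step from -0.10 to -0.42. It moved the change of Hdc from 0.96 to 0.64 and that of Slc18a2 from -0.12 to -0.44. This scaling shifts all genes of a library alike, so changes relative to the median gene cannot differ between the 2 scalings. Relative to the median gene Hdc changed by 1.06 and Slc18a2 by -0.02. Under quantile normalization the values relative to the median were 0.38 and -0.52. The replicate block changed no call of a member (Hdc at the first step: log2 change 1.44, limma adjusted p = 5.15e-04). For Slc18a2 at the first step the SE was 0.228 without the block and 0.169 with it. Of 12 libraries, 7 correlated best with their own number, a hint from the data and not from the design. Same-numbered pairs ran from -0.123 to 0.127, and those of Pre-BMPs with Pro-BMPs had 0.0486, 0.108 and 0.127. The numbers were not taken as pairs because only 2 of 18 such pairs had a correlation over 0.1, a count that cannot settle whether they are pairs.

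With a library left out, log2 changes of Hdc ran from 1.26 to 1.56, from 0.15 to 0.27 and from 0.92 to 1.05 at the 3 steps, and those of Slc18a2 from 3.74 to 4.19, from 2.23 to 2.54 and from -0.24 to 0.00, with no call changed. The range of the mean log2 ratio of Hdc to Slc18a2 between populations was 4.71, and 4.34 to 5.09 with a library left out.

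Called histamine-related genes at the first step numbered 2 with 5 reads added or with the filter, and 0 without the trend or with the 2 populations alone, against 1. From Pro-BMPs to Pre-BMPs they numbered 1 with the filter, and from Pre-BMPs to basophils 5 with the filter, which leaves fewer genes tested. With a library left out they ran from 0 to 3 at the first step (3 without DN-GMP replicate 2, 0 without Pro-BMP replicate 1 or 3) and from 1 to 4 at the second (1 without Pro-BMP replicate 1 or 2 or Pre-BMP replicate 2 or 3). Called V-ATPase genes at the first step numbered 1 with voom weights, 0 without the trend or with the 2 populations alone, and 1 to 2 with a library left out (1 without DN-GMP replicate 3 or Pro-BMP replicate 1 or 3). At the last step they numbered 7 with scaling by reads on listed genes, 8 with quantile normalization and 9 to 10 with a library left out. Without the trend or with the 2 populations alone, calls were lost for Slc22a3, Atp6v0a1 and Atp6ap2 at the first step and Slc7a5 at the second (limma adjusted p up to 0.145, 0.0561, 0.117 and 0.0889), and with voom weights for Atp6v0a1 (0.131). Hrh4 at the second step was lost with voom weights or the 2 populations alone (up to 0.107), and Slc38a5 at the last with the latter (0.0626). Where not stated above, the cause was not tested. The low levels of Maob and Slc38a5 rest on few reads in some libraries and were uneven between libraries. Maob had 10, 79 and 108 reads in basophils. Slc38a5 had 134, 57 and 80 reads in Pre-BMPs and 0, 4 and 20 in basophils.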
